A study of Zea mays with 4 samples.

Results

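The genes examined here encode the PIPs, the plasma membrane intrinsic proteins of maize, which let water cross the outer membrane of plant cells. They were taken as every gene on the array whose platform symbol, RefSeq symbol or RefSeq synonym carried a PIP1 or PIP2 name. That gave 10 genes, 4 of the PIP1 and 6 of the PIP2 subgroup, read by 16 probe sets, out of 1108 genes with a name or locus and 17554 maize probe sets. Beyond 10 matches, members would have been chosen by their mean log2 value over the 4 arrays, but exactly 10 matched, so this limit removed none and no gene lies just outside it. The difference between mutant and wild type played no part in the rule. The lowest mean inside was that of PIP2-6, at a log2 value of 3.93.

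Transcript levels had been measured in kernels of maize plants with the bt2-H2328 allele of Brittle2 (2 samples, called mutant) and in wild-type kernels (2 samples). RNA of each sample was amplified, labelled with biotin and hybridised to 1 Affymetrix maize array. All kernels were 35 days after pollination and came from untreated greenhouse plants under 16 h of light at 24 °C and 8 h of night at 17 °C. The labels give 20 µg of extracted RNA per sample, except 17 µg for mutant 2. Bt2 codes for part of an enzyme that feeds starch synthesis with ADP-glucose, and bt2 kernels are known to hold more soluble sugar and less starch. The mutant group stands for a single allele, and the labels give neither the inbred background nor whether the samples came from separate plants. The p-values therefore rest on the spread among these arrays, and this spread may be technical. In whole kernels, fewer cells of a type and less RNA per cell cannot be told apart.

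Water channels of the PIP family form pores through which water follows an osmotic gradient, and in seeds they are known for their part in water exchange during filling and drying. PIP2 proteins of maize are active water channels when made alone in frog oocytes. PIP1 proteins show little activity alone, and ZmPIP1-2 is known to reach the plasma membrane together with a PIP2 partner. The comparison of the subgroups therefore sets a class that carries water by itself beside a class that works in pairs with it.

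Levels are log2 GCRMA values, and differences are mutant minus wild type, with n = 2 arrays per group throughout. The test covered the 10457 probe sets that reached a log2 value of 4 on 2 or more arrays. Of the 16 PIP probe sets, 13 passed this filter, at least 1 for each of the 10 genes. The 3 others, second probe sets of PIP1-3/PIP1-4, PIP2-1 and PIP2-3, lay between 1.75 and 2.43 on every array. The transcript of bt2 itself read 10.13 and 10.12 in the mutant kernels and 12.67 and 12.64 in the wild types, and was 5.78-fold lower in the mutant (limma adjusted p = 0.00515). Of all tested probe sets, 43.2% had a limma adjusted p under 0.05, with 21.0% called higher and 22.1% called lower in the mutant, so a call is common on these arrays.

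Among the PIP genes, falls were found in the PIP2 subgroup and 1 rise in the PIP1 subgroup. Of 6 PIP2 genes, 3 were called lower (PIP2-1, PIP2-3 and PIP2-6), none rose and 3 did not pass. The call of PIP2-6 follows in part from the filter, which it passed only through its wild-type values, and is not counted as a result. Of 4 PIP1 genes, 1 rose (PIP1-5), none fell and 3 did not pass. Of 781 tested genes in all, 20.9% rose and 29.4% fell. With 4 PIP1 and 6 PIP2 genes, the counts of calls are not set apart from these shares. The median difference was -1.21 for the PIP2 genes, or -1.08 without the dim PIP2-6, and 0.29 for the PIP1 genes, beside -0.18 for all tested genes. The mutant and wild-type arrays did not overlap in 5 of 6 PIP2 genes, each lower in the mutant, where 47.5% of all tested genes were lower without overlap. PIP2-6 is among these 5 and entered the test only through its wild-type values. Over the 13 tested PIP probe sets, 4 were higher without overlap, against 39.3% of all, and 6 were lower, against 39.2%. That makes 10 of 13 without overlap against 78.5% of all, and 5 of 13 had an unadjusted limma p under 0.05 against 53.5% of all, so neither total sets the PIP genes apart.

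**Figure D1:**
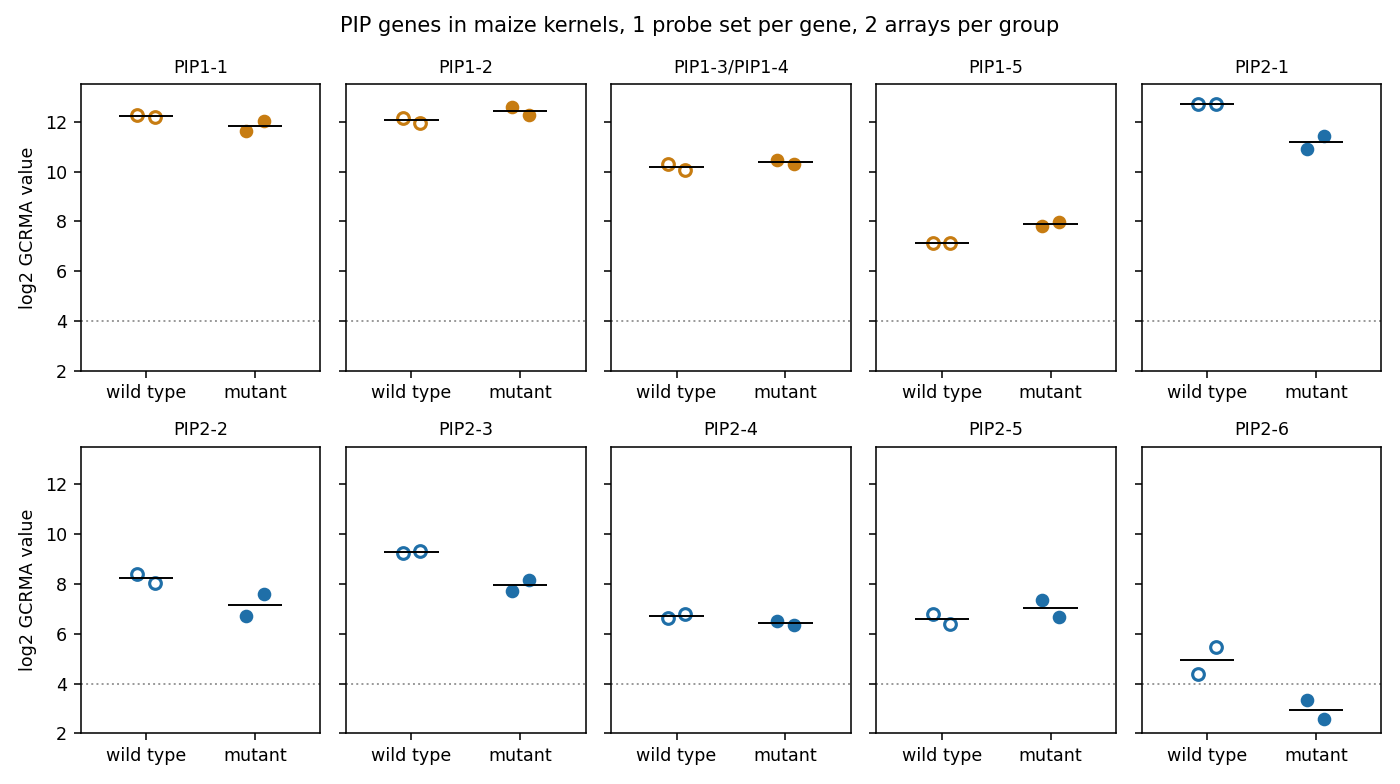
Log2 GCRMA value (vertical axis) of the probe set with the highest mean for each PIP gene, in wild-type (open points) and mutant (filled points) kernels, with black lines at the mean of 2 arrays and a dotted line at the filter value of 4. PIP1 genes are orange and PIP2 genes blue, and the largest gaps between the groups are those of PIP2-1, PIP2-2, PIP2-3 and PIP2-6, with the mutants lower in each. Levels of different genes come from different probes and have no common scale.

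PIP2-1 (gene LOC541888), a water channel of the active subgroup, read 10.92 and 11.42 in the mutants against 12.73 and 12.72 in the wild types. The wild types were all but equal, and both mutants lay well below them. The difference was -1.56 (SE 0.19), or 2.94-fold less in the mutant, and the limma adjusted p was 0.00912. Among all tested probe sets, 6.63% had a difference as low or lower. A second probe set annotated to this gene, whose name shares its cluster number with that of PIP2-2, stayed at 1.75 or 1.76 on all arrays and adds no information on the change.

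PIP2-3 (LOC541889) read 7.72 and 8.16 in the mutants against 9.26 and 9.31 in the wild types. Both mutants were again lower than both wild types, with mutant 1 the lower of the pair as in PIP2-1. The difference was -1.35 (SE 0.19), or 2.54-fold less in the mutant, and the limma adjusted p was 0.0108. The name of this probe set carries the suffix s_at, by which the manufacturer marks probes shared by transcripts of more than 1 gene, so reads of close PIP2 relatives may be included. Its other probe set lay between 2.14 and 2.17 on all arrays.

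PIP2-6 (LOC541891) was the dimmest member, at 3.32 and 2.56 in the mutants against 4.37 and 5.48 in the wild types. Both mutant values lay below the filter value of 4, and the gene passed the filter through its wild-type values alone. Its call as lower therefore follows in part from the filter and is not counted as a result. The measured difference was -1.99 (SE 0.49) with a limma adjusted p of 0.0342, and the fold is given as a bound, at least 1.90-fold lower in the mutant against a value of 4. Without the filter the same difference had an adjusted p of 0.0828. In the RefSeq gene order, PIP2-6 and PIP2-1 are near neighbours, with 1 protein-coding gene between them, the closest pair among the members. The next pair on 1 chromosome, PIP1-3/PIP1-4 and PIP2-3, has 113 genes between.

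PIP2-2 (LOC542644) was lower in the mutant without passing the test. It read 6.73 and 7.59 in the mutants against 8.42 and 8.05 in the wild types. The mutants differed from each other by 0.86, the widest mutant gap of any PIP probe set, although neither reached a wild-type value. The difference of -1.08 (SE 0.34, 95% interval -1.99 to -0.16) had a limma adjusted p of 0.0631. It passed at 0.0476 with the filter raised to a log2 value of 6 and at 0.0438 after quantile normalization, while the adjusted p was 0.116 without the filter. Without mutant 1 the difference was -0.65, with an adjusted p of 0.171.

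PIP2-4 (LOC541890), an active water channel in oocytes, read 6.50 and 6.36 in the mutants against 6.65 and 6.81 in the wild types. The groups did not overlap, but the difference of -0.30 (95% interval -0.73 to 0.13) did not pass, with a limma adjusted p of 0.195. PIP2-5 (LOC542619), best known from maize roots, was the only PIP2 gene with a positive difference. It read 7.37 and 6.69 in the mutants against 6.81 and 6.39 in the wild types, so that mutant 2 lay below wild type 1. Its difference of 0.43 had a 95% interval from -0.38 to 1.24 and a limma adjusted p of 0.302.

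In the PIP1 subgroup, PIP1-5 (LOC542014) was the only gene to pass. It read 7.83 and 7.97 in the mutants against 7.13 and 7.14 in the wild types, and both mutants were higher. The difference was 0.77 (SE 0.14), 1.70-fold higher in the mutant, with a limma adjusted p of 0.0169. Of all tested probe sets, 16.9% had a difference as high or higher, so the rise was not unusual in size.

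PIP1-2 (LOC541779), the channel used to study PIP1 and PIP2 partners in maize, read 12.59 and 12.29 in the mutants against 12.15 and 11.97 in the wild types. The groups did not overlap, and the difference was 0.38 (95% interval -0.01 to 0.77) with a limma adjusted p of 0.0984, or 0.0402 after quantile normalization. PIP1-1 (LOC542434) differed the other way, at 11.64 and 12.04 in the mutants against 12.27 and 12.20 in the wild types. Its difference of -0.40 (95% interval -0.83 to 0.04) had a limma adjusted p of 0.113. PIP1-1 was thus the only PIP1 gene with a negative difference, and it did not pass.

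PIP1-3 and PIP1-4 are 1 gene in RefSeq (LOC541886) and were read by 4 tested probe sets. In the one with the highest mean, the mutants read 10.48 and 10.31 and the wild types 10.32 and 10.06, which overlap. The 4 probe sets gave differences of 0.21, 0.33, 0.25 and 0.24, none past the threshold, with limma adjusted p values from 0.105 to 0.353. The difference of 0.33 passed at 0.0471, as 0.51, when each array was centred on its median. The 4 probe sets read the same gene and are not separate evidence, and 2 of them carry the suffix x_at, for probes that may also bind other genes.

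**Figure D2:**
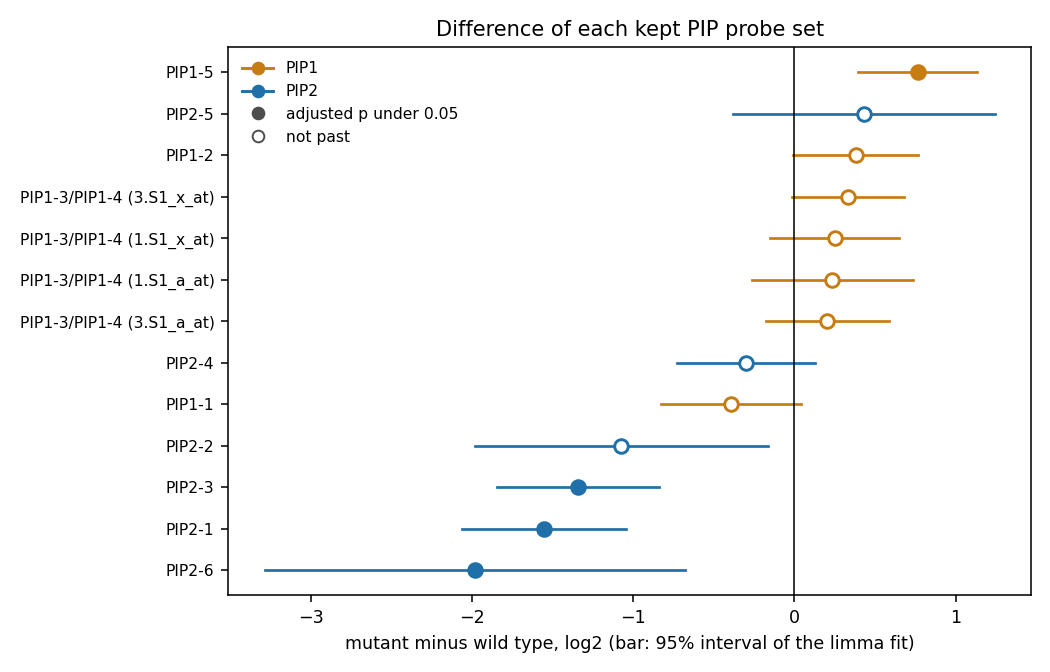
Mutant minus wild type in log2 (horizontal axis) for the 13 PIP probe sets that passed the filter, with bars for the 95% interval of the limma fit. Filled points passed an adjusted p of 0.05, which were PIP1-5 above 0 and PIP2-1, PIP2-3 and PIP2-6 below 0. PIP2-6 entered the test only through its wild-type values, so its call follows in part from the filter.

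Each of these 4 calls rests on all 4 arrays. With any 1 array left out, none of the 13 PIP probe sets passed, while all 13 kept the sign of their difference. The limma adjusted p then ranged from 0.0684 to 0.0956 for PIP2-1, from 0.073 to 0.104 for PIP2-3, from 0.0755 to 0.11 for PIP1-5 and from 0.0637 to 0.183 for PIP2-6. Among the called genes, the difference of PIP2-1 ranged from -1.81 to -1.31, that of PIP2-3 from -1.57 to -1.13, that of PIP2-6 from -2.54 to -1.43 and that of PIP1-5 from 0.70 to 0.84. Among the others, PIP2-2 ranged more widely, from -1.51 to -0.65, as did PIP1-1, from -0.60 to -0.20, and PIP2-5, from 0.09 to 0.77. The same held for the whole array: no probe set passed without mutant 1, mutant 2 or wild type 2, where 4523, 4616 and 3633 had an unadjusted p under 0.05, and 1194 passed without wild type 1.

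The direction of the PIP1 genes depends on the scale of the arrays. Poly-A controls, which are bacterial transcripts spiked into a sample, read higher in the mutants in all 36 of their probe sets, with a median difference of 1.20. Several of these probe sets read the same transcript, so they are not 36 separate observations. The hybridisation controls had a median difference of 0.135 over 27 probe sets. Centring each array on the poly-A controls moved every difference by -1.24. All 13 PIP probe sets were then lower in the mutant and passed, where 81.0% of all tested probe sets were called lower and 2.88% higher. PIP1-5 read -0.48 on that scale, PIP1-2 -0.86, PIP2-5 -0.81, PIP2-1 -2.80 and PIP2-3 -2.59. Whether the poly-A controls or the array-wide scale is the right base was not tested.

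**Figure D3:**
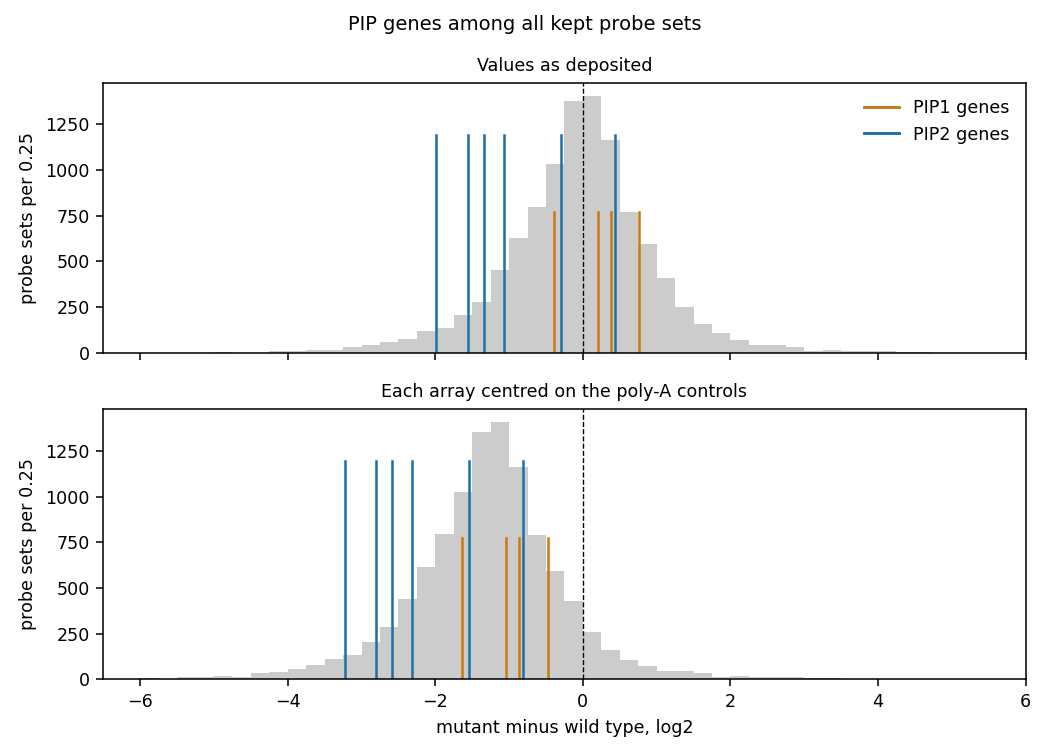
Number of tested probe sets (vertical axis) by mutant minus wild type in log2 (horizontal axis, bins of 0.25), with 1 line for each PIP1 gene (short, orange) and PIP2 gene (tall, blue). The upper panel shows the values as deposited and the lower panel the values centred on the poly-A controls, where all genes move by -1.24 together and the order of the PIP genes stays the same.

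The gap between the subgroups does not depend on that scale, because a shift of a whole array cancels within it. The mean of the 4 PIP1 genes minus the mean of the 6 PIP2 genes was 3.54 and 3.52 on the mutant arrays and 2.43 and 2.22 on the wild-type arrays. Only its change between groups can be read, since levels of different probe sets have no common scale. The mutants exceeded the wild types by 1.21, and the arrays of each group differed among themselves by less. In the two-sided exact permutation test the p was 0.333, the smallest that 2 against 2 arrays can give, so the test cannot pass here. The mean difference was 0.24 for the PIP1 genes and -0.97 for the PIP2 genes. Without the dim PIP2-6 the subgroup gap was 1.01, an alternative chosen after its values were seen.

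Each PIP2 gene was also taken against the PIP1 mean of the same array. Of the 5 other than PIP2-6, 4 were lower in both mutants than in both wild types. The share of all tested genes on this measure was not computed. Without subtracting the PIP1 mean, 47.5% of all tested genes were lower without overlap. That mean was 0.24 higher in the mutants, which lowers the change of any gene set against it. The count is therefore not read as a trait of the PIP2 genes. The change was -1.79 for PIP2-1, -1.58 for PIP2-3, -1.31 for PIP2-2 and -0.54 for PIP2-4. For PIP2-6, whose mutant values lay under 4, only a bound is given, and with these values raised to 4 the change was -1.16. PIP2-5 changed by 0.19, with overlapping groups. The PIP2 genes thus did not move as 1 block.

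**Figure D4:**
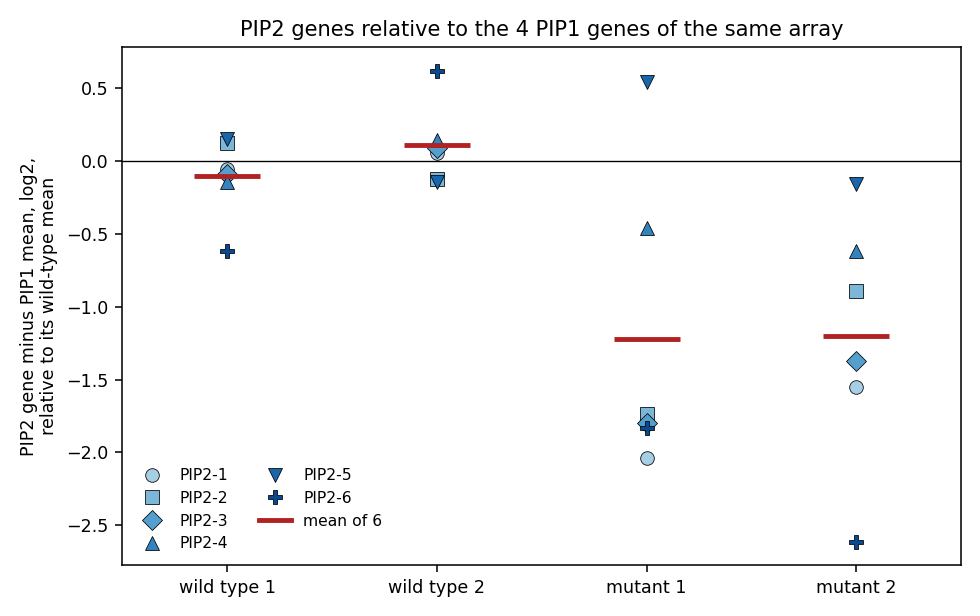
Log2 value of each PIP2 gene minus the mean of the 4 PIP1 genes on the same array, set to 0 at its own wild-type mean (vertical axis), for the 4 arrays (horizontal axis). Red lines are the mean of the 6 genes, which lies 1.21 lower over the mutants than over the wild types (1.01 without PIP2-6, whose mutant values lay under the filter value), while the change of PIP2-5 (downward triangles) is 0.19 with overlapping groups.

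The members also differed in how the 2 mutant arrays compared. In PIP2-1, PIP2-2, PIP2-3 and PIP1-1, mutant 1 was below mutant 2, by 0.50, 0.86, 0.44 and 0.40. In PIP2-5, PIP2-6, PIP1-2 and PIP1-3/PIP1-4 it was above, by 0.68, 0.76, 0.30 and 0.17. Across all tested probe sets the median gap between the mutants was 0.20 and between the wild types 0.18. Likeness of pattern was measured as the Euclidean distance over the 4 arrays between log2 values centred on each gene's own mean. PIP2-1 and PIP2-3 were 0.22 apart and PIP1-2 and PIP1-3/PIP1-4 0.21 apart, the closest pairs among the members. The probe set of PIP2-3 carries the suffix s_at and may include reads of close relatives. Whether it reads PIP2-1 was not tested, so this likeness may not be that of separate signals. PIP1-5 and PIP2-6 were farthest, at 2.93.

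Among 691 named genes, those nearest to each member by this distance were of varied function, and 4 arrays allow no test of likeness. PIP2-3 lay 0.04 from abp1, the auxin-binding protein gene, and PIP2-1 lay 0.19 from TUA1, an alpha tubulin gene, and 0.19 from the calreticulin gene crt2. PIP2-2 lay 0.18 from bt1, the plastid ADP-glucose carrier gene of the endosperm. The nearest to PIP2-6 was a calmodulin gene, at 0.43, followed by the alcohol dehydrogenase gene adh2 at 0.49. PIP1-3/PIP1-4 lay 0.09 from TIP3-2 and 0.10 from TIP3-1, seed water channels of the vacuole, and 0.11 from the oleosin gene ole1. PIP1-5 lay 0.11 from hsp18a, a small heat shock protein gene, 0.12 from ohp1, a zein gene regulator, and 0.13 from mha4, a plasma membrane proton pump gene. PIP1-2 was nearest to mir2 at 0.03, PIP1-1 to nitrilase1 at 0.05, PIP2-4 to pdi4 at 0.04 and PIP2-5 to HK1 at 0.06.

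Water channels of the other families changed in both directions. The array held 18 TIP, NIP and SIP genes, and 9 of them passed the filter. Among these 1 rose, 2 fell and 6 did not pass the test, and the median of the 9 differences was -0.59. With 9 genes, these shares, 11.1% and 22.2%, are not set apart from the 20.9% and 29.4% of all tested genes that rose and fell. TIP1-1, a channel of the vacuolar membrane, read 13.09 and 12.98 in the mutants against 12.38 and 12.28 in the wild types. Both mutants were higher, by 0.71 (SE 0.10, limma adjusted p = 0.0104), which is -0.54 on the poly-A scale. The seed channels TIP3-1 and TIP3-2 read 0.18 and 0.12 and did not pass, as did TIP2-1 at -0.76 and TIP2-3 at -1.08.

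SIP1-2, a small basic intrinsic protein of a family found in the endoplasmic reticulum of Arabidopsis, fell by 1.51 (SE 0.20, limma adjusted p = 0.00985), from 7.18 and 7.57 in the wild types to 5.90 and 5.83 in the mutants. NIP3-1, known in maize for boron transport, fell by 0.75 (SE 0.19, limma adjusted p = 0.0382). SIP1-1 and SIP2-1 read -0.59 and -0.37 and did not pass. On the poly-A scale all 9 were lower and passed, where 81.0% of all tested probe sets were called lower. The genes NIP1-1, NIP2-1, NIP2-2, NIP2-3, TIP1-2, TIP2-2, TIP4-1, TIP4-4 and TIP5-1 lay under a log2 value of 4 on all arrays.

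**Figure D5:**
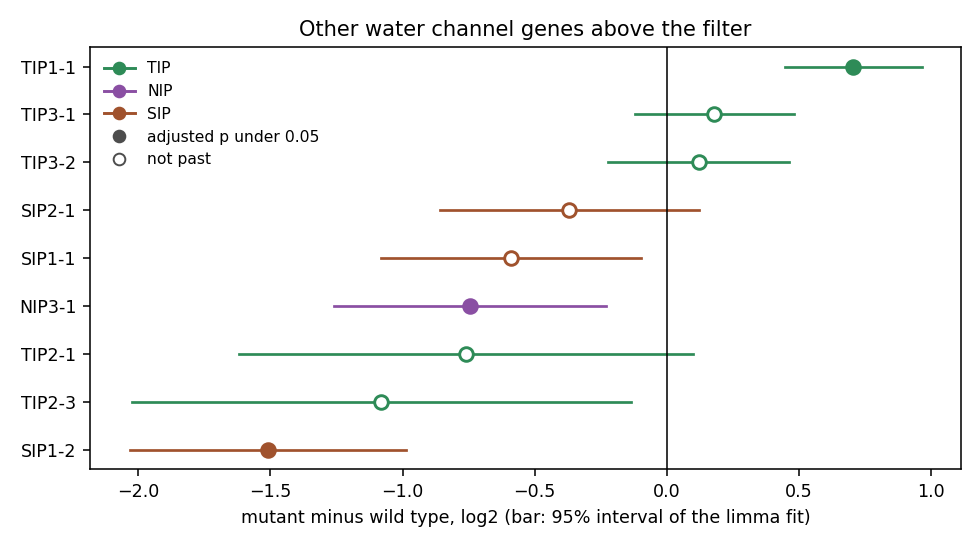
Mutant minus wild type in log2 (horizontal axis) for the 9 TIP, NIP and SIP genes that passed the filter, with bars for the 95% interval of the limma fit. Filled points passed an adjusted p of 0.05, which were TIP1-1 above 0 and NIP3-1 and SIP1-2 below 0.

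Among genes of membrane transport, osmotic balance and wall growth, counts of calls were set against the 20.9% of all tested genes that rose and the 29.4% that fell. Of 4 proton pump genes, which power solute uptake, mha4 rose by 0.88 and vpp3, a vacuolar pump, fell by 0.44, while mha1 differed by -1.54 and vpp1 by -0.02 without passing, so 25% of the pump genes were called in each direction, near those shares. Of 10 genes for sugar, potassium, nitrate and phosphate transport, 1 passed the filter, the potassium channel gene ZMK2, which read -0.09 and did not pass. Of 8 genes of the water deficit response, 7 passed the filter, 4 rose and 3 did not pass, with a median of 0.43. The dehydrin gene dhn2 rose by 2.09, dhn1 (rab17) by 0.41 and EMB5, a late embryogenesis gene, by 0.43. Of 12 expansin genes, which loosen the walls of growing cells, 7 passed the filter, but expa1, expB3, expB6 and EXPA5 did so only through the wild types, with both mutant values under 4. Their calls as lower follow in part from the filter and are not counted as a result. Of the other 3, 1 fell and 2 did not pass. expB8 fell by 2.30, from 10.13 and 10.15 to 7.92 and 7.76. On the poly-A scale 81.0% of all tested probe sets were called lower and 2.88% higher. The counts in these lists were then 4 falls of 4 pumps, and 1 rise and 5 falls of 7 water deficit genes.

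Markers of kernel tissues were read beside these results, again against the 20.9% and 29.4% of all tested genes that rose and fell. In starchy endosperm, 10 of 13 tested marker genes (76.9%) fell and none rose. Those that fell included the zein genes z1C2 (-3.68) and z1C1_12 (-1.24) and the zein regulator pbf1 (-2.70). The other 3 did not pass, namely wx1 at 0.18, sh1 at -0.32 and the zein gene zp27 at -0.325. The summed level of the 15 endosperm genes was 16.19 and 15.94 in the mutants against 17.44 and 17.42 in the wild types, in log2. Of the 15, 1 lay under 4 on all arrays. In the embryo, 3 of 6 (50%) rose and none fell, namely ws1 at 0.97, rab17 and EMB5. Of these, rab17 and EMB5 are also in the water deficit list, and the tie of ws1 to the embryo was not tested. The storage genes glb1, glb2 and ole1 did not pass. The summed level of the embryo list was 16.85 and 16.78 against 16.58 and 16.46. On the poly-A scale these rises turned to -0.28 for ws1, -0.83 for rab17 and -0.81 for EMB5. The defining embryo genes kn1 and lec1 lay under 4 on all arrays, while glb1, a storage globulin of the embryo, read 15.28 and 15.17 in the mutants against 14.98 and 14.83 in the wild types.

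In the basal transfer layer, which takes up sugar from the mother plant, the summed level of the 10 markers was 9.32 and 9.19 against 10.28 and 10.84. Of 6 tested markers, betl3, meg2, BETL1 and bap1-b passed the filter only through the wild types, with both mutant values under 4, and give no count. The other 2 fell, betl4 by 2.21 and meg6 by 0.66, and the cell wall invertase gene INCW2 lay under 4 on all arrays. In the aleurone, 4 markers were tested, among them vpp1, which is also in the proton pump list. Nkd1 fell by 1.02 and dek1 rose by 1.64, while Sal1 and vpp1 differed by 0.35 and -0.02 without passing, and dek1 read 0.39 on the poly-A scale (limma adjusted p = 0.266). The summed levels were 12.06 and 12.03 against 12.13 and 12.03, and c1 and cr4 lay under 4. The brightest gene in this sum was vpp1, at 11.24 and 11.2 in the mutants against 11.31 and 11.17 in the wild types. Of 19 markers of pericarp and floral tissue, 10 were tested, while p1, gl1 and gl15 lay under 4 on all arrays. Of the 10, 3 fell (30%), a share like that of all genes, and none rose. Those that fell were zmm6 at -2.15, bde1 at -1.07 and zag2 at -1.46. The summed levels of the 19 were 11.43 and 11.78 against 12.07 and 12.16. The part of these shifts in the PIP differences was not tested.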

How the data were processed

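Log2 values per probe set were used as the authors deposited them. Per the submitters' processing notes they come from GCRMA. The sources used here give neither its version nor whether the arrays were normalized together. The log base was read from the values, which run from 1.31 to 15.44. Of 17734 rows, 113 array controls, 66 reporter sequences and 1 row without values were left out. Genes were named through the platform annotation and, by Entrez identifier, RefSeq (assembly Zm-B73-REFERENCE-NAM-5.0), which matched 1377 of 1452 probe sets with 1 gene. Neither coordinates nor sequences are printed.

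The filter kept probe sets with a log2 value of 4 or more on at least 2 arrays. The test was limma 3.58.1 in R 4.3.3 (lmFit, eBayes with trend, two-sided, Benjamini-Hochberg over the 10457 tested probe sets) and was tested on simulated data. A gene was represented by its probe set with the highest mean. Members and lists were chosen with earlier results of these data known. Named genes were all PIP and other water channel genes, bt2, up to 3 of each other list by smallest p, and the 5 nearest patterns per member, of which the text gives the first or first few; some marker genes were named after their values were seen. A gene each was dropped from the water channel, embryo and transfer layer lists as a shared synonym. These were sip1 (0.435, not past the threshold), GLB1 of gene LOC541815 (2.42, called higher) and MRP1 (4.15, called higher). With them, 4 of 7 tested embryo genes and 1 of 7 tested transfer layer genes would have been called higher. Figures were drawn with matplotlib 3.10.9. The number of arrays limits the precision.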

Additional observations from a re-analysis of the deposited data

How the results depend on the processing

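Of the 13 PIP probe sets, 4 passed (1 higher, 3 lower), among them PIP2-6, which entered the test only through its wild-type values. After quantile normalization 2 were higher, and after median centring also 2. With centring on the poly-A controls 13 passed, 0 higher and 13 lower, and at an adjusted p of 0.01 there was 1, 0 higher and 1 lower. Without any 1 array none passed, while all 13 kept the sign of their difference. The count over all probe sets, 4514, was 8768 on the poly-A scale (301 higher, 8467 lower), 1134 at 0.01 and 0 to 1194 without 1 array. Without the filter it was 5207, with 3438 higher. The 3 other water channels past the threshold became 5 after quantile normalization, 9 on the poly-A scale, 1 at 0.01 and 0 to 1 without 1 array. The 11 genes past it in the transport, water deficit and expansin lists, 4 of them expansins that entered the test only through the wild types, became 17 on the poly-A scale, 6 without the variance trend, 6 at 0.01 and 0 to 7 without 1 array.

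On the poly-A scale the sign turned for PIP1-2 (-0.86), PIP1-5 (-0.48), PIP2-5 (-0.81) and the 4 probe sets of PIP1-3/PIP1-4 (-1.04, -0.91, -0.99 and -1.01), since each value moved by -1.24. The gap between PIP1 and PIP2, 1.21, was 1.00 with a pseudocount of 16, 1.01 without PIP2-6 and 1.10 to 1.32 without 1 array.

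The replicate numbers were not taken as pairs. Deviations of same-numbered arrays correlated at 0.02, which cannot show whether the samples were collected in pairs. With the replicate block 3444 probe sets and 3 PIP probe sets passed, PIP2-6 having a limma adjusted p of 0.0881 and PIP2-2 one of 0.122. The gap between PIP1 and PIP2 was then 1.21 with an exact permutation p of 0.50, the smallest that the blocked test can give. The cause of other changes was not tested.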
